A study of Drosophila suzukii with 24 samples.

Results

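In Drosophila suzukii, the spotted wing drosophila, 261 of 13584 gene models were close to silent in untreated flies of both the field and the laboratory population and were read at 1 FPKM or more in 3 groups of insecticide survivors. FPKM divides a gene's fragment count by its transcript length and by the size of the library, so levels can be compared between genes. The members were chosen by these levels: under 0.1 FPKM in both untreated groups, and 1 FPKM or more in field malathion, field zeta-cypermethrin and lab malathion survivors. They are 261 of the 2530 gene models under 0.1 FPKM in both untreated groups, called control-silent here. The levels that chose them are given below as a description and were not tested. What was not used in choosing them is their level in field spinosad, lab spinosad and lab zeta-cypermethrin survivors, the length of their loci and their place on the scaffolds.

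The flies were wild type adults, 5 to 7 days old, sequenced whole in pools of 10 individuals. There were 8 groups of 3 samples: untreated flies, and flies that outlived spinosad, malathion or zeta-cypermethrin at the dose lethal to 50%, from flies collected in the field and from flies reared in the laboratory. Malathion is an organophosphate that inhibits acetylcholinesterase, zeta-cypermethrin a pyrethroid that acts on voltage-gated sodium channels, and spinosad a fermentation product that acts on nicotinic acetylcholine receptors. Sex is not stated in the labels, nor is how many of each sex entered a pool, and the labels do not say whether replicates were separate exposures. The deposited tables hold 1 FPKM value for each group, pooled over its 3 samples, so the group levels below carry no replicate error, and a level that came from 1 sample of a group cannot be told apart from a level shared by all 3. The tables hold FPKM without fragment counts, so the depth is unknown.

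RNA from a whole insect is a mixture of all its tissues, and a pool of insects is a mixture of individuals. In Drosophila melanogaster the testis, the male accessory glands and the ovary each transcribe many genes that other tissues, and the other sex, hardly transcribe. The level of such a gene in a pool therefore depends on which individuals the pool holds as well as on transcription in each of them. In bulk RNA, fewer cells of a type and less RNA per cell cannot be told apart. The gene IDs are not paired with names in the tables, and 0 of the 13584 IDs occurred in the RefSeq gene table of another assembly (18239 genes), so no function, sex marker or tissue marker could be attached to any member, and whether sex, tissue or the make-up of the pools has a part in the pattern was not tested.

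Across the 8 groups the members took 3 kinds of level. In untreated field flies 203 of the 261 members were listed at 0 and the highest was at 0.0940 FPKM; in untreated lab flies 182 were listed at 0 and the highest was at 0.0998 FPKM. In field malathion survivors the members ran from 1.04 to 507 FPKM with a median of 5.69, and in field zeta-cypermethrin survivors from 1.44 to 960 FPKM with a median of 5.73. In lab malathion survivors they ran from 1.00 to 296 FPKM with a lower median, 1.95. Those ranges start at 1 FPKM or just above it because the rule sets that limit. No gene showed the opposite pattern, with both untreated groups at 1 FPKM or more and under 0.1 FPKM in the same 3 survivor groups (0 genes).

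The 3 survivor groups that the rule did not use split by population. In field spinosad survivors 255 of the 261 members (97.7%) were at 0.1 FPKM or more and 177 were at 1 FPKM or more, with a median of 1.43 FPKM and a highest value of 177. Of the 2269 other control-silent genes 39.2% reached 0.1 FPKM in that group and 2.78% reached 1 FPKM. Those 2269 include 337 at 1 FPKM or more in both field groups of the rule but not in lab malathion. Of the 337, 95.0% reached 0.1 FPKM in field spinosad and 11.9% reached 1 FPKM. Over all 13584 gene models the shares were 86.3% and 70.7%. The members were chosen for presence in both other field survivor groups, so the contrast with the 2269 is not like for like. In lab zeta-cypermethrin survivors 182 members were listed at 0, as many as in untreated lab flies, and 3 reached 1 FPKM. In lab spinosad survivors 180 were listed at 0 and again 3 reached 1 FPKM. There the shares of members at 0.1 FPKM or more, 9.96% for zeta-cypermethrin and 12.3% for spinosad, lay near those of the other control-silent genes, 9.56% and 9.30%. At 1 FPKM or more, 177 members were thus found in all 3 field survivor groups, and 3 in each lab group other than malathion. Field spinosad survivors are compared with the same untreated field flies that the rule used, so the low untreated level is not a second observation.

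**Figure D1:**
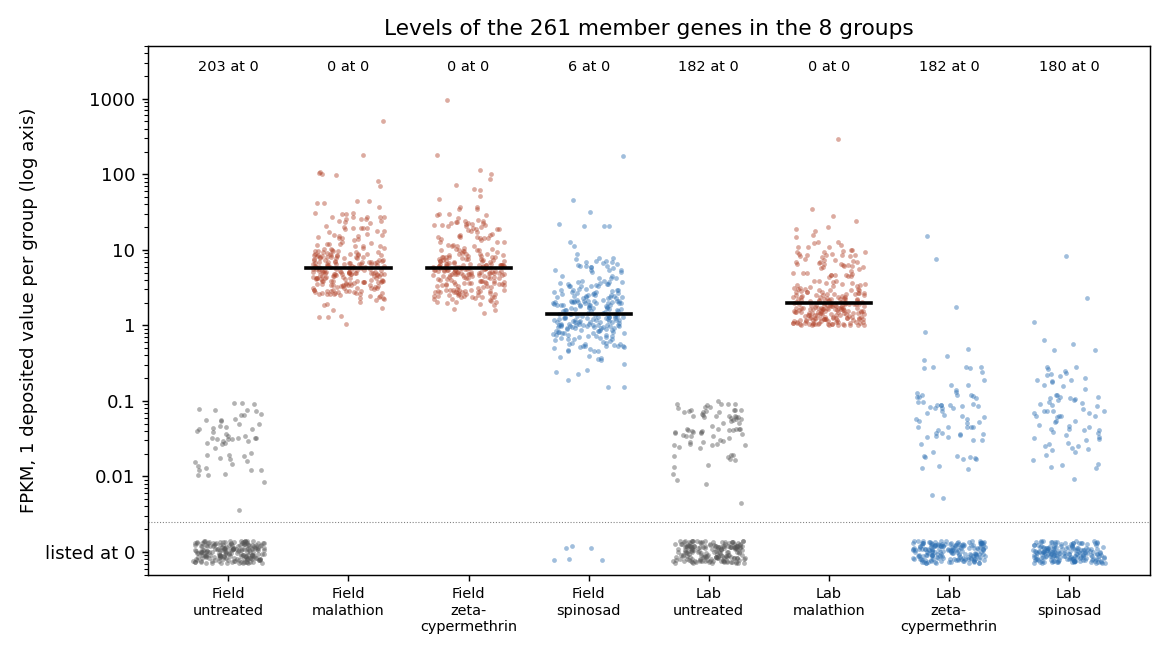
FPKM (log axis) of each of the 261 members in each of the 8 groups, 1 point per gene, with the median as a black bar where it is above 0; red groups set the rule's lower limit, blue groups were not used by the rule, grey groups are untreated, and the band at the bottom holds genes listed at 0. The members stand at a median of 5.69, 5.73 and 1.43 FPKM in the 3 field survivor groups and 1.95 FPKM in lab malathion, while most are listed at 0 in the other lab groups.

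Nearly all control-silent genes found in lab malathion were also found in the field. Of the 278 control-silent genes at 1 FPKM or more in lab malathion survivors, 261 (93.9%) were also at 1 FPKM or more in both field groups of the rule and so are the members. In the other direction, 598 of all 2530 control-silent genes reached 1 FPKM in field malathion and field zeta-cypermethrin together, and 43.6% of these 598 are members. These counts use the levels of the rule and are a description. The 337 that are not members were under 1 FPKM in lab malathion, but 326 of them were at 0.1 FPKM or more there. Among the control-silent genes at 10 FPKM or more in field malathion and at 1 FPKM or more in field zeta-cypermethrin, 63 of 64 are members. Counting every survivor group at 1 FPKM or more, 173 members were present in field malathion, field zeta-cypermethrin, field spinosad and lab malathion and in no other group, 84 in the 3 groups of the rule alone, and 4 in at least 1 further lab group.

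The highest member was DS10_00011193 (scaffold 175, 65600 to 65791). It was listed at 0 in both untreated groups and in lab zeta-cypermethrin and lab spinosad survivors, and stood at 507 FPKM in field malathion, 960 in field zeta-cypermethrin, 177 in field spinosad and 296 in lab malathion. In the authors' deposited tables it was called higher in these 4 groups, with q-values of 5.1e-04, 2.7e-04, 4.5e-04 and 0.00191. Its locus is 192 bp long, and the FPKM of a locus this short rests on few positions.

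DS10_00005295 (scaffold 5, 2452076 to 2452261) was the second highest, at 177 FPKM in field malathion, 181 in field zeta-cypermethrin, 45.4 in field spinosad and 20.2 in lab malathion, and listed at 0 in the other 4 groups. Its log2 ratio of lab to field malathion was −3.13, the lowest among the members. It was called in the 3 field comparisons of the authors' deposited tables but not in lab malathion, where the q-value in the authors' deposited table was 0.644.

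DS10_00006470 and DS10_00006471 lie next to each other on scaffold 11 (3638261 to 3638470 and 3640735 to 3641100). The first stood at 107, 114, 21.9 and 12.6 FPKM in field malathion, field zeta-cypermethrin, field spinosad and lab malathion, and the second at 99.7, 86.4, 32.0 and 35.1 FPKM. The first was thus the higher in field malathion and field zeta-cypermethrin, and the second in field spinosad and lab malathion. DS10_00006472 (3642058 to 3642633), the next gene model, is also a member but far weaker, at 2.64 FPKM in field malathion and 1.01 in lab malathion.

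DS10_00013434 (scaffold 3680, 661 to 2317) differed from the other strong members in field spinosad. It stood at 80.5 FPKM in field malathion, 102 in field zeta-cypermethrin and 28.0 in lab malathion but at 3.52 in field spinosad. DS10_00001172 (scaffold 1, 13619098 to 13619889) went further, with 31.1, 61.1 and 24.2 FPKM in the 3 groups of the rule and a listed 0 in field spinosad. The other members listed at 0 in field spinosad were DS10_00000989, DS10_00003548, DS10_00009181, DS10_00013054 and DS10_00013568, at 2.59 to 15.5 FPKM in field malathion. With 1 value per group, a true absence and an estimate that failed in field spinosad cannot be told apart for these 6 genes.

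The remaining members among the 12 with the highest geometric mean over the 3 groups of the rule were DS10_00001267, DS10_00001354, DS10_00001387, DS10_00001570, DS10_00009288 and DS10_00001146. In field malathion they ran from 37.0 to 104 FPKM, in field zeta-cypermethrin from 24.4 to 71.4, in field spinosad from 5.03 to 20.7 and in lab malathion from 8.54 to 19.0. All 6 were listed at 0 in both untreated groups. Of the 6, DS10_00001354 reached 1.10 FPKM in lab spinosad survivors, DS10_00009288 0.102, and the others were listed at 0 there.

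Only 4 members reached 1 FPKM in lab zeta-cypermethrin or lab spinosad survivors. DS10_00002545 (scaffold 2, 5228558 to 5228710) stood at 7.54 FPKM in lab malathion, 7.54 in lab zeta-cypermethrin and 8.25 in lab spinosad, against 2.41, 2.55 and 2.38 FPKM in the field malathion, zeta-cypermethrin and spinosad groups. It had the highest ratio of lab to field malathion among the members, and was called in lab zeta-cypermethrin and lab spinosad (q = 0.0337 and 0.0272 in the authors' deposited tables) but in none of the groups of the rule. DS10_00003104 (scaffold 2, 9865010 to 9871788) was present in all 6 survivor groups, at 1.12 FPKM in lab malathion, the lowest, and 5.38 FPKM in field zeta-cypermethrin, the highest. DS10_00012125 (scaffold 313, 73880 to 73981), whose locus of 102 bp is the shortest of all members, stood at 43.7 FPKM in field malathion and 15.0 in lab zeta-cypermethrin, and neither was called (q = 0.0523 and 0.838 in the authors' deposited tables). The fourth was DS10_00001354, given above.

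At the limits of the rule, the members closest to 0.1 FPKM in an untreated group were DS10_00013137 (0.0998), DS10_00011838 (0.0940) and DS10_00013170 (0.0933), and the nearest genes left out were DS10_00001518 (0.102), DS10_00001695 (0.104) and DS10_00013168 (0.104). At the limit of 1 FPKM the members closest to it were DS10_00011195, DS10_00006472 and DS10_00005460 (1.00, 1.01 and 1.01 FPKM in lab malathion), and the nearest genes left out were DS10_00004855, DS10_00006382 and DS10_00001524 (0.994, 0.991 and 0.990 FPKM). In each of these 12 genes except DS10_00013170 the lab malathion level was the lowest of the 3 survivor levels. The genes nearest 1 FPKM were picked for a level at that limit, which was the lab malathion level in each. For them this order was largely set by the choice.

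Most members differed between groups by a similar factor. In field zeta-cypermethrin the median member stood at 0.960 times its field malathion level (median log2 ratio −0.06, quartiles −0.39 and 0.32). In lab malathion it stood at 0.341 times its field malathion level (median log2 ratio −1.55, quartiles −1.89 and −1.11), and 250 of the 261 members were lower in lab malathion than in field malathion. In field spinosad the 255 members above 0 stood at 0.241 times their field malathion level at the median (median log2 ratio −2.05, quartiles −2.43 and −1.60), lower in 254 of them. The rule did not use the field spinosad level but did use the field malathion level, the divisor, and a lower limit on the divisor pushes such a ratio down.

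Among genes expressed in all groups the medians lay nearer to 0. Over the 8103 genes at 1 FPKM or more in all 8 groups the median log2 ratios to field malathion were −0.08 for field zeta-cypermethrin, −0.10 for lab malathion and −0.13 for field spinosad. Over the 1048 of them whose field malathion level lay within the members' quartiles (3.82 to 9.53 FPKM) they were 0.25, 0.01 and 0.20. Asking for 1 FPKM in every group leaves out genes that are far lower in lab malathion or field spinosad, which limits how low these medians can lie. The field and lab tables were normalised separately. These medians hold any shift between the tables together with differences in expression, and they changed with the set of genes. For lab malathion the median was −0.10 over the 8103 genes and 0.01 over the 1048. Beyond the ratios of untreated flies, the size of a shift from normalisation was therefore not measured. The contrast between members and other genes was not tested, since the members' levels set the ratio to the lab.

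The limit of 1 FPKM in lab malathion removes genes whose ratio is low, which pushes the members' ratio to the lab up. The limit of 1 FPKM in field malathion, the divisor, pushes it down, so the net direction is not known. Over all 598 control-silent genes at 1 FPKM or more in both field groups, with no limit on lab malathion, a set chosen after seeing the data, the median log2 ratio of lab to field malathion was −1.78 where it could be computed (593 genes). Over the 64 of these at 10 FPKM or more in field malathion, where the limit in lab malathion removes 1 gene, it was −1.83. Both sets were still chosen on field malathion, which pushes these medians down.

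**Figure D2:**
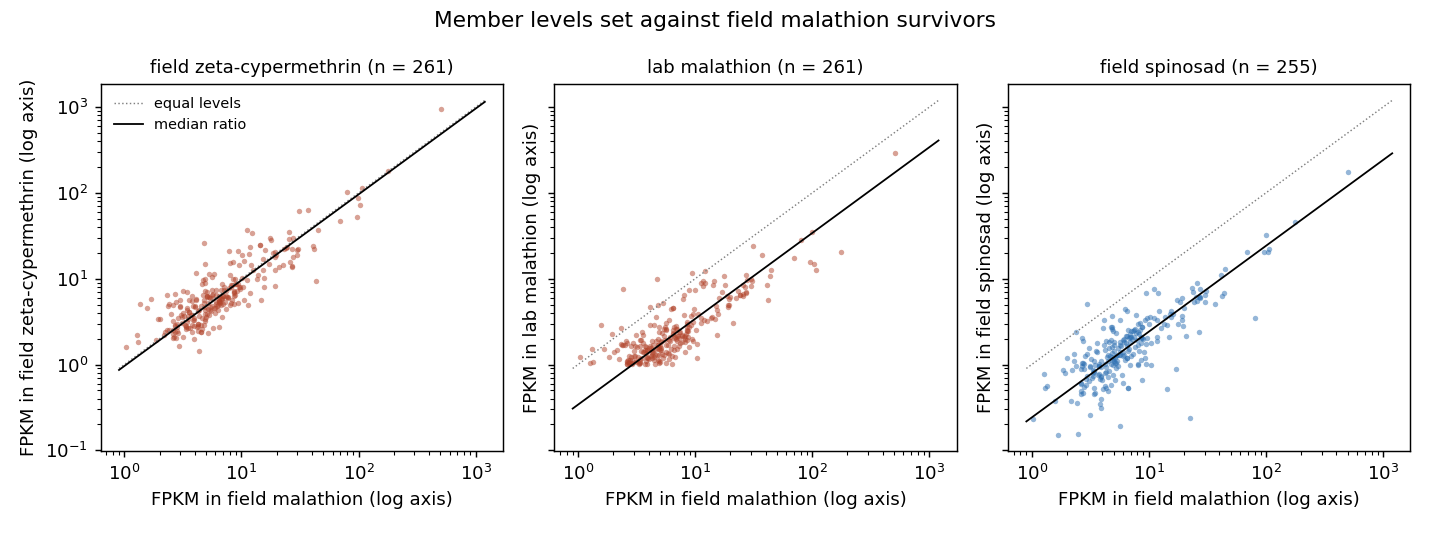
FPKM of the members in field zeta-cypermethrin, lab malathion and field spinosad survivors against FPKM in field malathion survivors (log axes), 1 point per gene above 0, with equal levels dotted and the median ratio as a solid line. The solid lines stand at 0.960, 0.341 and 0.241 times the field malathion level. They are parallel to the dotted line because they are drawn at 1 ratio, and no slope was fitted to the points. The lower edge at 1 FPKM in the middle panel is the limit of the rule.

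Individual members scattered around these proportions. The SD over members of the log2 ratio was 0.66 for field zeta-cypermethrin, 0.72 for lab malathion and 0.83 for field spinosad, each against field malathion. Over the 8103 genes at 1 FPKM or more in all groups these SDs were 0.43, 0.46 and 0.63, and over those of like field malathion level 0.51, 0.57 and 0.74. Within 2-fold of the median ratio lay 88.5%, 81.2% and 83.5% of the members, against 95.8%, 91.5% and 85.4% of genes of like level. Scatter of this kind holds sampling error, which no value per replicate is at hand to measure. The sets are not matched for it: the other genes had to reach 1 FPKM in every group and were matched on field malathion alone, while the members stood at lower levels in lab malathion and field spinosad.

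Across members, levels in different groups followed each other over a wide range. On the log2 scale Pearson's r was 0.836 between lab and field malathion (Spearman's rho 0.758) and 0.811 between field spinosad and field malathion (rho 0.740, 255 members). These are correlations across genes, and genes are no independent replicates. All points share the length scaling of FPKM, which carries the same annotated length into both levels of a gene. They describe the members and carry no p-value.

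**Figure D3:**
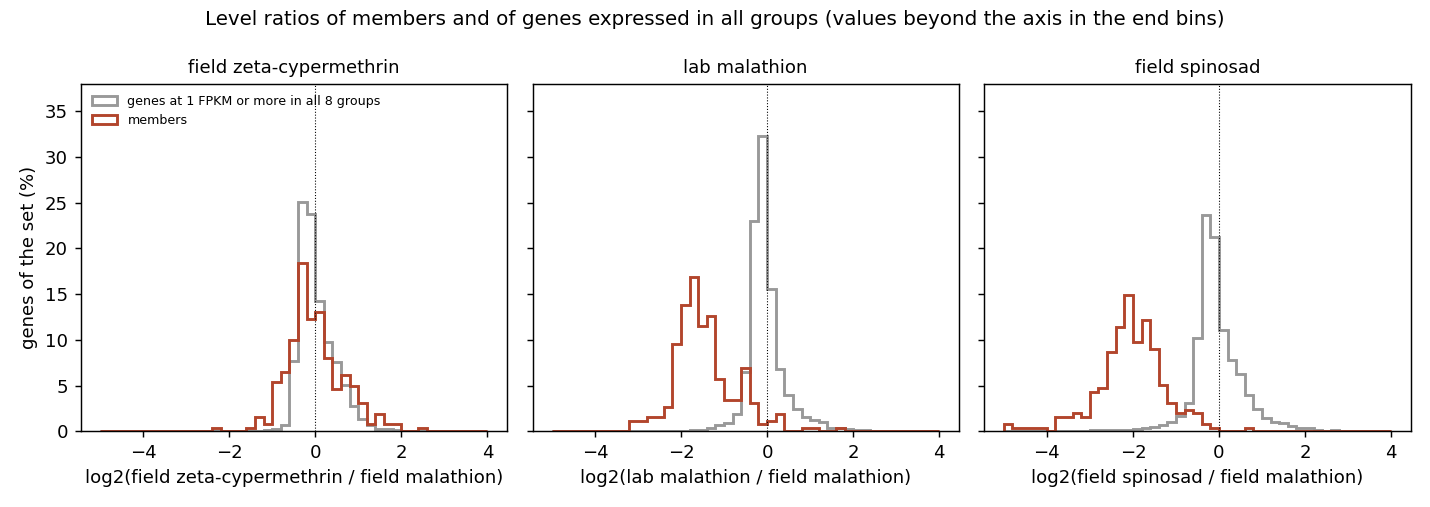
Distribution of the log2 ratio of each group to field malathion, in percent of the genes of a set, for members (red) and for the 8103 genes at 1 FPKM or more in all 8 groups (grey). Members and other genes overlap for field zeta-cypermethrin, while the members' median lies at −1.55 for lab malathion and −2.05 for field spinosad, against −0.10 and −0.13 for the other genes.

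Of the 261 members 212 lay within 2-fold of the median ratio of lab to field malathion and the others beyond it. DS10_00005295, DS10_00006470 and DS10_00001386 had the lowest ratios of lab to field malathion; DS10_00001386 (scaffold 1, 16031693 to 16032325) stood at 10.3 FPKM in field malathion and 1.19 in lab malathion. DS10_00002545, DS10_00000393 and DS10_00000204 had the highest. DS10_00000393 (scaffold 1, 4381236 to 4384495) stood at 4.75 FPKM in field malathion, 26.3 in field zeta-cypermethrin and 9.85 in lab malathion, and DS10_00000204 (scaffold 1, 2503494 to 2504473) at 1.57, 4.57 and 2.86. Both were therefore higher in field zeta-cypermethrin than in either malathion group. In all, 11 members were higher in lab than in field malathion. Field spinosad held members that lay further from its median log2 ratio of −2.05, here picked out after their values were seen. DS10_00007012 (scaffold 10, 2741716 to 2747020) stood at 22.5 FPKM in field malathion, 14.6 in field zeta-cypermethrin and 5.90 in lab malathion but at 0.240 in field spinosad, a log2 ratio to field malathion of −6.55. It was followed by DS10_00011919 (−4.89) and DS10_00001294 (−4.80).

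By share of the FPKM summed over all genes the members were a small fraction. FPKM is divided by length, so this is not a share of the fragments in a library. Their FPKM summed to 0.423% of all FPKM in field malathion, 0.435% in field zeta-cypermethrin, 0.158% in lab malathion and 0.108% in field spinosad. In untreated field flies they made up 2.9e-04% and in untreated lab flies 4.7e-04%, and in lab zeta-cypermethrin and lab spinosad 0.00394% and 0.00261%. DS10_00011193 alone gave 507 of the 3375 FPKM in field malathion.

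The authors' test called many of the members, though far from all. A call is a deposited q-value of 0.05 or less with the survivors higher. In field malathion 176 of the 259 tested members were called, in a table where 17.8% of the tested genes were called higher. For field zeta-cypermethrin the count was 183 of 259, where 27.8% of tested genes were called higher, and for lab malathion 156 of 255, where 2.98% were. These 3 contrasts chose the members, so nothing is read from the counts. In field spinosad 139 of 197 tested members were called, with 25.9% of all tested genes called higher, and 64 members were not tested by the authors. That comparison shares its untreated libraries with the rule. In lab zeta-cypermethrin 3 members were tested and 1 was called (1.79% of tested genes called higher), and in lab spinosad 2 were tested and 1 called (2.02%); the call in each was DS10_00002545. No member was called lower in any table (0 in each of the 6). With a deposited q of 0.01 or less the counts were 175, 178, 123 and 127 in field malathion, field zeta-cypermethrin, lab malathion and field spinosad, where 12.7%, 20.3%, 2.16% and 18.3% of all tested genes passed, and 0 in lab zeta-cypermethrin and lab spinosad, where 0.973% and 1.39% passed. With a deposited p of 0.05 or less, not adjusted, they were 183, 186, 168 and 143, where 23.9%, 31.5%, 4.99% and 30% passed, and 2 in each of those lab tables, where 6.03% and 5.01% passed.

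Whether a member was called followed the listing of the untreated group at exactly 0. In field malathion 175 of the 201 tested members listed at 0 in untreated flies were called, against 1 of the 58 listed above 0. The counts were 182 of 201 and 1 of 58 in field zeta-cypermethrin, 152 of 176 and 4 of 79 in lab malathion, and 137 of 149 and 2 of 48 in field spinosad. The survivor levels of both kinds of member were of similar size, with medians of 6.19 FPKM (untreated at 0) and 4.91 FPKM (above 0) in field malathion and of 2.01 and 1.93 FPKM in lab malathion. Their loci differed more, with medians of 735 and 1675 bp in field malathion.

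DS10_00003434 illustrates the split. The authors' deposited table for malathion lists it at 0.0644 FPKM in untreated field flies and 30.7 FPKM in survivors, with a q-value of 0.146, while weaker members that were listed at 0 passed. It was not called in field zeta-cypermethrin or lab malathion either, at 22.0 and 9.34 FPKM (q = 0.170 and 0.773 in the authors' deposited tables). In field spinosad the same gene was called, at 0.0667 and 7.19 FPKM (q = 0.0199 in the authors' deposited table). DS10_00001293 was called in none of the 4 groups where it was present, at 25.7 FPKM in field malathion, 29.0 in field zeta-cypermethrin, 8.89 in field spinosad and 8.46 in lab malathion (q = 0.268, 0.195, 0.229 and 0.733 in the authors' deposited tables). DS10_00013223 was the exception, called in all 4 with untreated levels above 0 (q = 0.0426, 0.0224, 0.0322 and 0.0133 in the authors' deposited tables); this gene was picked out after its values were seen. The other calls with an untreated level above 0 were DS10_00000361, DS10_00006595 and DS10_00009428, all in lab malathion, and they were picked out in the same way.

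The same split was seen when all tested genes were counted, the members among them. Over all tested genes at 1 FPKM or more in field malathion survivors, 504 of 593 listed at 0 in untreated flies were called, 12 of 283 between 0 and 0.1 FPKM were called, and 29 of 129 from 0.1 to 0.2 FPKM were called. In lab malathion the counts were 165 of 193, 4 of 84 and 0 of 33. Members made up 201 of the 593 and 58 of the 283 in field malathion. In lab malathion they made up 176 of the 193 and 79 of the 84, so the lab counts mostly repeat those of the members. Calls therefore did not follow the size of the difference at the bottom of the range, and a call or its absence says little about a single member.

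**Figure D4:**
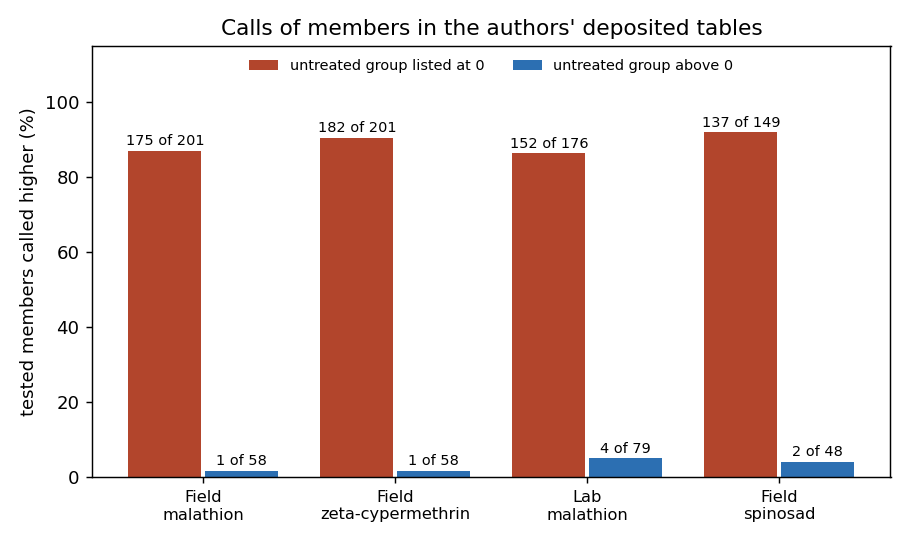
Percent of tested members called higher in the authors' deposited tables, for members listed at 0 in the untreated group (red) and above 0 in it (blue), in the 4 comparisons where more than 10 members were tested. Of members listed at 0, from 86.4% to 91.9% were called, against 1.72% to 5.06% of the others.

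The members' loci were short. A locus here is the span from the first to the last base of a gene model on its scaffold, introns included. The median was 864 bp over the members, 1165 bp over the other control-silent genes and 2800 bp over the 11054 genes that were not control-silent. Loci under 1000 bp made up 55.9% of the members, 44.0% of the other control-silent genes and 18.7% of the genes not control-silent. The 337 control-silent genes that reached 1 FPKM in both field groups but not in lab malathion had a median of 1008 bp. FPKM divides by transcript length, so a few fragments lift a short locus past 1 FPKM more easily than a long one, and the lengths of members are not independent of the limit in that sense.

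Length and level were weakly related. The 27 members under 300 bp had a median of 6.46 FPKM in field malathion and 4.58 in lab malathion, the 119 from 300 to under 1000 bp 6.45 and 1.94, the 70 from 1000 to under 3000 bp 4.74 and 1.68, and the 45 longer ones 4.90 and 1.98. The ratio between groups held in short and long loci. The median log2 ratio of lab to field malathion was −1.59 in members under 1000 bp and −1.52 in members of 1000 bp or more, and that of field spinosad to field malathion was −1.99 and −2.07. Members under 300 bp scattered most, with an SD of 1.13 for lab against field malathion, and had a median of −1.18.

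The longest members were DS10_00003300 (scaffold 2, 44925 bp), DS10_00001533 (scaffold 1, 37562 bp) and DS10_00000781 (scaffold 1, 24811 bp), at 6.56, 4.90 and 6.48 FPKM in field malathion. The shortest, beside DS10_00012125, were DS10_00000989 (120 bp) and DS10_00001924 (129 bp). A locus whose length is a whole multiple of 3 is what a coding sequence without introns or untranslated ends gives. Such lengths were found in 56.7% of the members, 51.0% of the other control-silent genes and 41.3% of the genes not control-silent. Among loci under 1000 bp the shares were 69.2%, 61.6% and 61.1%. The 337 control-silent genes that missed the limit in lab malathion alone lay above the members in both. Their shares were 63.8% of all loci and 72.9% of those under 1000 bp.

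**Figure D5:**
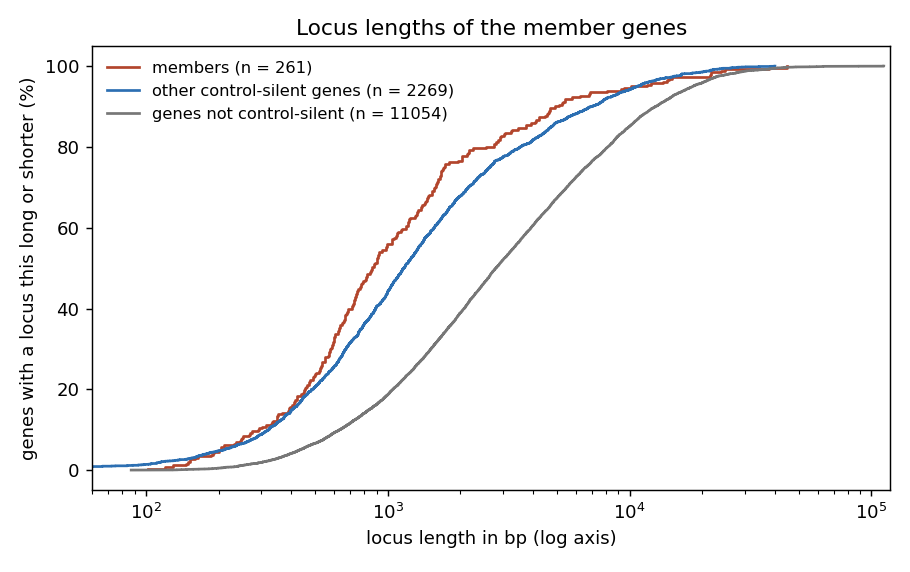
Cumulative percent of genes by locus length in bp (log axis) for members, other control-silent genes and genes not control-silent. The curve of the members lies furthest to the left through the middle of the range, with medians of 864, 1165 and 2800 bp for the 3 sets.

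Scaffold 1 held more of the members than of other genes. Of the 261 members 91 (34.9%) lay on it, against 14.8% of all gene models, 12.7% of the other control-silent genes and 19.9% of the 337 control-silent genes that missed the limit in lab malathion alone. Members were 4.51% of the 2016 gene models of scaffold 1 and 1.92% of all gene models. Scaffold 2 held 44 members (16.9%, against 11.9% of gene models) and scaffold 3 held 19 (7.28%, against 7.47%). On the other scaffolds with at least 100 gene models the members' share of the gene models ran from 0.750% on scaffold 6 to 3.73% on scaffold 10. Members occurred on 64 of the 902 scaffolds, 46 of them with 1 member.

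Along scaffold 1 the members were spread over its whole length. Its 4 equal stretches held 17, 18, 31 and 25 members, which is 3.21%, 3.75%, 6.51% and 4.72% of their gene models. Members on scaffold 1 had a median log2 ratio of lab to field malathion of −1.36 (SD over members 0.83), and members elsewhere −1.62 (0.65). The ratios of field spinosad to field malathion were −1.98 and −2.06. The scaffolds are those of the authors' assembly, whose build is not given in the sources used here, so they were not assigned to chromosomes.

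Some members lay side by side. A gene model directly beside it on the scaffold, on either side, was also a member for 61 of the 261 (23.4%). They formed 23 runs of 2 and 5 runs of 3. Of these 28 runs 15 lay on scaffold 1. Among the 2269 other control-silent genes 1217 (53.6%) had a neighbour of their own set, in runs of up to 12. That set is larger, which raises such a share, so these shares are not like for like. Of the 502 gene models flanking a member 13.1% were members, against 3.67% of those flanking another control-silent gene and 1.38% of those flanking a gene that was not control-silent. Control-silent genes of any kind were as common beside members (43.0% of flanking models) as beside the other control-silent genes (41.3%), and less common beside other genes (12.9%). Without sequences, whether neighbours are copies of each other, between which fragments could be divided, was not tested.

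The 5 runs of 3 span 3273 to 5429 bp. Beside the run on scaffold 11 given above, 3 lie on scaffold 1. DS10_00001145, DS10_00001146 and DS10_00001147 (13172739 to 13176011) stood at 4.12, 41.3 and 24.4 FPKM in field malathion and at 4.64, 8.54 and 6.41 in lab malathion. In the run of DS10_00001386, DS10_00001387 and DS10_00001388 (16031693 to 16035588) the middle gene was the strongest, at 69.4 FPKM in field malathion against 10.3 and 5.56, and at 17.5 in lab malathion against 1.19 and 2.71. DS10_00001830, DS10_00001831 and DS10_00001832 (20349642 to 20355070) stood at 9.17, 5.88 and 6.65 FPKM in field malathion and at 3.65, 1.37 and 2.73 in lab malathion. The last run, DS10_00006735 to DS10_00006737 on scaffold 8 (2210196 to 2214746), stood at 5.64, 4.85 and 12.8 FPKM in field zeta-cypermethrin and at 2.25, 1.54 and 4.82 in lab malathion. Within these 5 runs some adjacent members thus stood at unlike levels. The levels within the 23 runs of 2 were not summarised.

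Of the 261 members 19 (7.28%) had a locus that overlapped another gene model, against 6.26% of the other control-silent genes and 11.7% of the genes not control-silent. For 6 of the 19 the overlapping gene stood at 1 FPKM or more in untreated field flies. The partners of the other 13 could still be high in survivors. Those of DS10_00000948 and DS10_00001453 were listed at 0 in untreated field flies and stood at 73.7 and 47.6 FPKM in field malathion. Others stayed low, such as the partner of DS10_00010937, at 0.0939 FPKM in field malathion. The libraries were stranded, per the labels, but whether fragments were counted by strand is not given in the sources used here, so the levels of these members are uncertain. The 242 members without an overlap had a median log2 ratio of lab to field malathion of −1.55, like the whole set.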

How the data were processed

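The 24 samples form 8 groups of 3 by their titles. The submitters' processing notes name TopHat2 2.0.13, Cufflinks 2.2.1, Cuffdiff and FastQC; a genome build and an annotation were not given in the sources used here. Of the 6 deposited tables, 1 for each insecticide and population, each gives FPKM for untreated flies and survivors, pooled by the authors over replicates. The authors also deposited a log2 fold change, a test statistic (a score), a p-value with a lowest listed value of 5e-05, and a q-value over the genes tested in a table. In 4 tables the columns have generic names and were read as untreated first, from the order in the tables' names: within a population the ratio of their first columns lay between 1.02 and 1.04 from the 1st to the 99th percentile of genes in the field (median 1.03) and between 1.02 and 1.03 in the lab, and these columns followed the untreated column that the spinosad table names (field r = 0.987, lab r = 0.986). Untreated libraries are shared by the 3 comparisons of a population.

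Members were found by the rule on the untreated values of the malathion tables. Ratios are log2 of 2 FPKM values, with no pseudocount, over genes above 0 in both groups. Calls are the authors' own. Locus starts, deposited counted from 0, are printed counted from 1. Counts of genes and medians are descriptions, and no test across genes was made. The members and lists were chosen with earlier results of these data known. Named genes are the 12 highest members, the longest runs of neighbours, the extremes of ratio and length, members present in further groups and those nearest the limits; 5 runs of 3 tied. The marker lists prepared for testis, male accessory gland, female, gut and nervous tissue could not be applied, because 0 IDs matched a gene name, and gave no result. The counting of members and neighbours was tested on simulated data. Alternatives changed the limits, the level counted as present, the call rule, the scaling and the definition of a neighbour. Tools were Python 3.11.15, pandas 2.3.3, numpy 2.4.6 and matplotlib 3.10.9.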

Additional observations from a re-analysis of the deposited data

How the results depend on the processing

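Of 102 alternative values for 20 results, 80 stayed within 1.5 times the reported value and 22 did not. The number of members was 220 and 298 with untreated limits of 0.05 and 0.2 FPKM and 260 with all 6 untreated columns under 0.1 FPKM, but 167 with both untreated groups listed at 0, and 497, 125 and 50 with survivor limits of 0.5, 2 and 5 FPKM. Taken as ratios, the medians run under alternatives moved by less than 1.5-fold. On the log2 scale, against field malathion, lab malathion ran from −1.83 to −1.17 and field spinosad from −2.16 to −1.47, while field zeta-cypermethrin, near 0, took either sign (−0.18 to 0.06); lab malathion against field zeta-cypermethrin ran from −1.62 to −1.11. Members counted as present in field spinosad numbered 32 at 5 FPKM. In lab zeta-cypermethrin they numbered 26 at 0.1 FPKM and 79 above 0, and in lab spinosad 32 at 0.1 FPKM, 81 above 0 and 1 at 5 FPKM. Calls among members listed above 0 in the untreated group numbered 1 in field malathion, 1 in field zeta-cypermethrin, 4 in lab malathion, 2 in field spinosad and 0 in the other lab tables; in each of those lab tables a q of 0.01 or less left 0 calls and an unadjusted p of 0.05 or less gave 2. Members with another member within 50 kb numbered 94 (36.0%), and with at most 2 gene models between 101 (38.7%). The other control-silent genes, a larger set, gave 73.2% and 72.1% when counted among themselves. Beyond the construction of each alternative, the cause of these moves was not tested.

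No paired analysis was possible because the tables used here hold 1 pooled value per group. Leaving out a replicate was not run for the same reason. Depth is unknown, and levels near the limits carry no counting interval. All alternatives for field spinosad against field malathion, the sets without a limit on lab malathion, the loci of at least 300 bp and the members without an overlap were added after seeing the data.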

Other observations

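The 337 control-silent genes that reached 1 FPKM in field malathion and field zeta-cypermethrin but stayed under 1 FPKM in lab malathion were also found in field spinosad, mostly below 1 FPKM. There 320 of them (95.0%) were at 0.1 FPKM or more, against 97.7% of the members, and 40 (11.9%) reached 1 FPKM, against 67.8%; in lab zeta-cypermethrin and lab spinosad 1 and 2 reached 1 FPKM. Their median log2 ratio of field spinosad to field malathion was −2.14, beside −2.05 for the members, and that of lab to field malathion −1.97 over the 332 above 0, a value that their limit in the lab lowers. Both sets were chosen on field malathion, the divisor of these ratios. Loci with a length that is a whole multiple of 3 made up 63.8% of them, against 56.7% of the members.

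DS10_00001524 (scaffold 1, 17462924 to 17464699) missed membership at 0.990 FPKM in lab malathion and had another order of levels than the members. It was highest in field spinosad, at 13.9 FPKM, against 5.20 in field malathion and 10.7 in field zeta-cypermethrin, and it reached 1.10 FPKM in lab spinosad. It was picked out after its values were seen.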
